A study of Mus musculus with 6 samples.

Results

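Ribosome biogenesis and RNA polymerase I genes were examined in whole uteri of Arid1a d/d and Arid1a f/f mice. The group was defined by name as 37 genes, of which 36 had a probe set that names the gene alone, among 18193 genes measured in this way. Mrto4 was the gene without one, and it has no value here. RNA was taken at 3.5 dpc, when the uterus prepares for embryo attachment, and hybridised to Affymetrix mouse expression arrays with 3 arrays for each genotype. Arid1a d/d mice carry floxed Arid1a alleles together with Cre recombinase made from the Pgr locus (Pgr cre/+), so the deletion is limited to cells that express PGR and other uterine cells keep the gene. Arid1a f/f mice carry the same floxed alleles without Cre, so the genotypes also differ at the Pgr locus, and no array came from mice with Cre alone. The labels give no age, nor do they state that arrays came from different mice, and the p-values then measure only the spread between these samples, which may be technical. The deposited intensity values lie on a linear scale and were compared after log2 transformation with limma, p-values being adjusted by Benjamini-Hochberg across the 45037 probe sets and called under 0.05. A gene is represented by its brightest probe set over the 6 arrays, and the log2 fold change, or log2 ratio, is above 0 for a higher value in Arid1a d/d uteri.

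Arid1a itself had an intensity of 54.0 ± 3.61 in Arid1a d/d uteri and 91.4 ± 10.9 in Arid1a f/f uteri (SD, n = 3 each), with a log2 ratio of -0.76 (limma, adjusted p = 0.0120). The array medians ran over 3.05 to 3.17 with no detection calls in the table, so a value near this level cannot be told from background. Uterine identity was checked on the homeobox genes Hoxa10 and Hoxa11 and on Hand2. Hoxa10 had 218 ± 60.9 in Arid1a d/d and 221 ± 16.8 in Arid1a f/f uteri, Hoxa11 had 73.3 ± 19.8 and 103 ± 8.73, and Hand2 had 127 ± 33.8 and 124 ± 7.40, in the same order (SD, n = 3 each). All lay far above the array medians.

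Ribosomes are built in the nucleolus. RNA polymerase I transcribes the long precursor of ribosomal RNA (rRNA), small nucleolar ribonucleoproteins (snoRNPs) guide its chemical modification, and sets of processing factors cut the precursor and assemble the small and the large ribosomal subunit. Box C/D snoRNPs direct methylation of ribose, and box H/ACA snoRNPs direct conversion of uridine to pseudouridine. Demand for ribosomes rises with cell growth and division, and the rodent uterus is a classical tissue in which estrogen raises RNA and protein synthesis. ARID1A belongs to the SWI/SNF complex, which remodels chromatin.

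Of the 36 genes, 13 were higher and 0 lower in Arid1a d/d uteri by the adjusted limma test, a share of 36.1%. Among all 18193 genes 3.37% were higher and 4.06% lower by the same test, and among the 9097 genes brighter than the median gene, where 35 of the 36 lie, 5.72% were higher. At an unadjusted p under 0.05 limma gave 22 higher and 0 lower, against 11.4% and 13.5% of all genes. The median log2 ratio was 0.42, against -0.018 over all genes, and 34 of the 36 genes lay above 0. On 23 of them every Arid1a d/d array was above every Arid1a f/f array, which was true of 13.4% of all genes, and on 0 of them every Arid1a d/d array was below, against 16% of all genes. At least 1.5-fold higher were 10 of the 36, against 3.89% of all genes, and 0 were at least 1.5-fold lower, against 4.5%. The genes that rose make snoRNP proteins and subunit processing factors, and differences between these roles and the 5 RNA polymerase I genes were not tested. Leaving out Arid1a f/f replicate 2 left 2 genes called, and leaving out Arid1a d/d replicate 2 left 4, Arid1a f/f replicate 3 left 5, and Arid1a d/d replicate 3 or Arid1a f/f replicate 1 left 6. Without Arid1a d/d replicate 1 the count was also 13, but only 10 of these were among the first 13. Gar1, Utp20 and Heatr1 were then called, and Fbl, Nhp2 and Nolc1 were not. The share of all genes called higher fell as well. It was 1.76%, 0.764% and 0.951% without Arid1a f/f replicate 1, 2 or 3, in that order. Without Arid1a d/d replicate 1, 2 or 3 it was 3.06%, 1.68% and 1.65%.

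**Figure D1:**
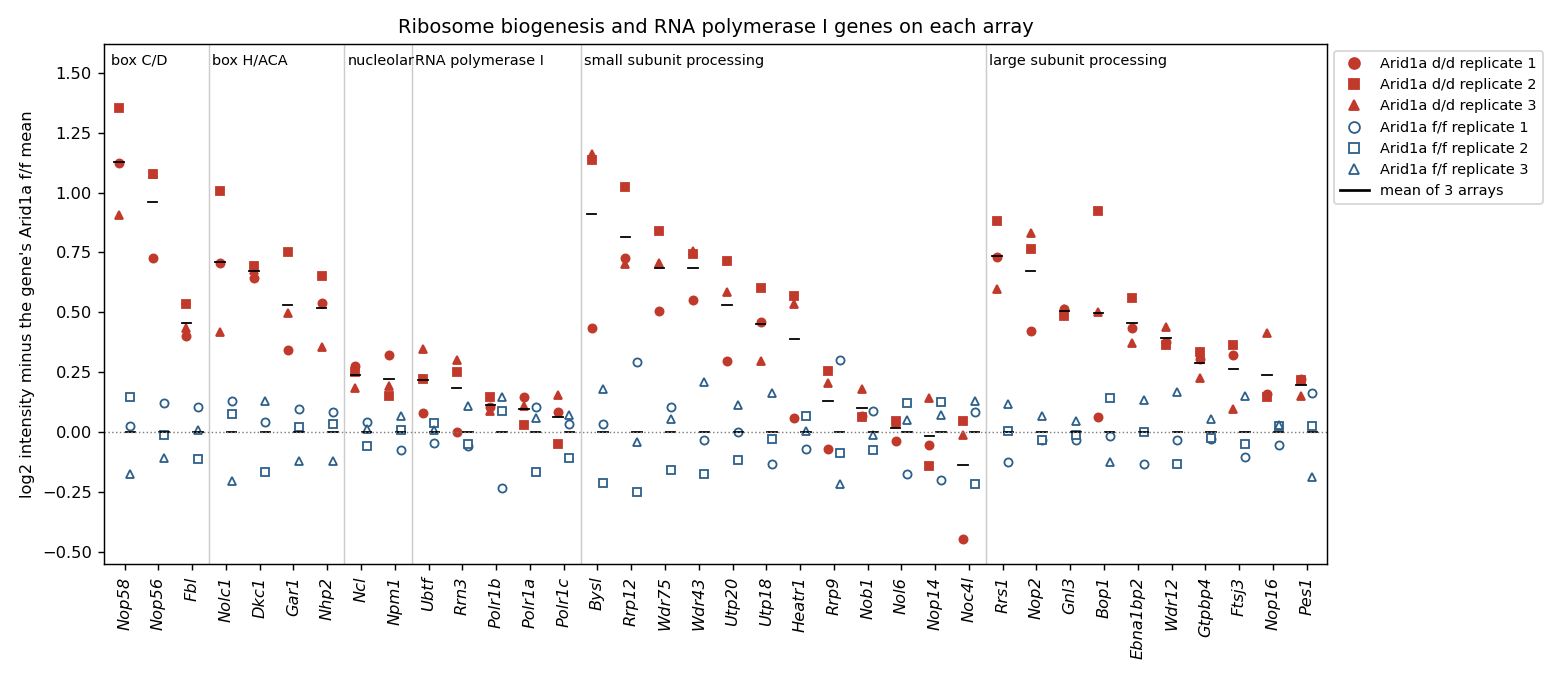
Log2 intensity of each of the 36 genes on each array minus the mean of that gene on the 3 Arid1a f/f arrays (vertical axis), with genes grouped by role and the 3 Arid1a d/d arrays left of the 3 Arid1a f/f arrays. Short bars are means of 3 arrays, and the Arid1a d/d points lie above all Arid1a f/f points for 23 genes, with Nop58, Nop56 and Bysl the farthest apart on average.

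The members of box C/D snoRNPs all rose. Nop58, which encodes a scaffold protein of this particle, had intensities of 108, 126 and 92.6 on the Arid1a d/d arrays, against 50.4, 54.8 and 43.8 on the Arid1a f/f arrays (replicates 1 to 3 in each). The lowest Arid1a d/d array was well above the highest Arid1a f/f array. Its log2 ratio of 1.13 (SE 0.14, limma adjusted p = 0.00532) corresponds to a 2.18-fold higher level and was the largest of the 36 genes. Nop56, the paralog of Nop58 in the same particle, had 102, 129.91 and 129.96 in Arid1a d/d uteri and 67.0, 61.0 and 57.1 in Arid1a f/f uteri. Here too the arrays did not overlap, and the log2 ratio was 0.96 (SE 0.13, limma adjusted p = 0.00678). Fbl, which encodes the methyltransferase fibrillarin, had 304, 334 and 312 in Arid1a d/d uteri, against 247, 213 and 232 in Arid1a f/f uteri. The change was smaller, with a log2 ratio of 0.46 (SE 0.10, limma adjusted p = 0.0403). Nop56 and Nop58 kept their calls whichever of the 6 arrays was left out, with log2 ratios of 0.90 to 1.08 for Nop56 and 1.01 to 1.24 for Nop58, while Fbl lost its call without any 1 array.

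Of the box H/ACA genes, 3 of 4 rose, and the fourth did not pass the test. Dkc1, which encodes the pseudouridine synthase dyskerin, had 144, 149 and 147 in Arid1a d/d uteri and 94.5, 81.7 and 100.4 in Arid1a f/f uteri. The Arid1a d/d arrays were close together and all above the Arid1a f/f arrays, with a log2 ratio of 0.67 (SE 0.11, limma adjusted p = 0.0129). Nolc1, which encodes a nucleolar chaperone of snoRNPs, had 40.6, 50.04 and 33.3 in Arid1a d/d uteri and 27.3, 26.2 and 21.6 in Arid1a f/f uteri, with a log2 ratio of 0.71 (limma, adjusted p = 0.0424). Nhp2, a core protein of the particle, had 262, 283 and 231 in Arid1a d/d uteri and 191, 185 and 166 in Arid1a f/f uteri, with a log2 ratio of 0.52 (limma, adjusted p = 0.0388). Both were higher on every Arid1a d/d array, but each stayed past the threshold in 1 of 6 fits without 1 array, whereas Dkc1 did in 5 and lost it without Arid1a f/f replicate 2. Gar1, another core protein gene, had 108.5, 144 and 121 in Arid1a d/d uteri and 91.4, 86.9 and 78.8 in Arid1a f/f uteri. Its arrays did not overlap, and its log2 ratio of 0.53 (limma, adjusted p = 0.0513) missed the threshold.

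The 2 abundant nucleolar phosphoprotein genes had small differences that did not pass the test on their brightest probe sets. Ncl, which encodes nucleolin, had 562, 551 and 527 in Arid1a d/d uteri and 478, 445 and 468.5 in Arid1a f/f uteri, with a log2 ratio of 0.24 (95% interval 0.028 to 0.45, limma adjusted p = 0.208). Npm1, which encodes nucleophosmin, had 1066, 946 and 974 in Arid1a d/d uteri and 811, 858 and 893 in Arid1a f/f uteri, with a log2 ratio of 0.22 (95% interval -0.0039 to 0.44, limma adjusted p = 0.280). On both genes the genotypes did not overlap. These intervals lie below the log2 ratios of Nop56 and Nop58, but the difference between genes was not tested. A dimmer probe set of Ncl passed, with a log2 ratio of 0.73 (limma, adjusted p = 0.0109).

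On their brightest probe sets, 0 of the 5 genes of RNA polymerase I and its factors passed the test, and 0 did at an unadjusted p under 0.05. With 3.37% of all genes higher, a count of 0 among 5 is near the background and does not set these genes apart. Ubtf, which encodes the upstream binding factor that opens rRNA genes, had 73.5, 81.0 and 88.4 in Arid1a d/d uteri and 67.3, 71.2 and 69.8 in Arid1a f/f uteri. It was the only gene of these 5 with no overlap between genotypes, and its log2 ratio was 0.22 (95% interval -0.018 to 0.45, limma adjusted p = 0.315). Rrn3, which encodes the initiation factor that recruits the polymerase, had 0.18 (95% interval -0.076 to 0.44). Polr1a and Polr1b, the genes of the catalytic subunits, had 0.096 (95% interval -0.15 to 0.34) and 0.11 (95% interval -0.16 to 0.38) on the log2 scale. Polr1c, a subunit shared with RNA polymerase III, had 84.8, 77.4 and 89.3 in Arid1a d/d uteri and 82.0, 74.4 and 84.2 in Arid1a f/f uteri, with a log2 ratio of 0.063 (95% interval -0.17 to 0.30). A dimmer probe set of Polr1a had 7.65, 8.34 and 6.31 in Arid1a d/d uteri and 5.95, 5.43 and 3.85 in Arid1a f/f uteri. Its arrays did not overlap, and its log2 ratio of 0.56 (limma, adjusted p = 0.118, unadjusted p = 0.0110) did not pass the adjusted test, so the probe sets of this gene differ in what they show. Polr1a and Polr1b were dim, with means of 12.6 ± 0.508 and 11.3 ± 0.233 in Arid1a d/d and 11.9 ± 1.16 and 10.5 ± 1.42 in Arid1a f/f uteri (SD, n = 3 each).

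Among 12 genes of small subunit processing, 4 rose and 8 did not pass the test, with a median log2 ratio of 0.42. Bysl, which encodes bystin, a factor of late small subunit maturation, had 28.9, 47.0 and 47.9 in Arid1a d/d uteri and 21.9, 18.5 and 24.3 in Arid1a f/f uteri. Arid1a d/d replicate 1 was much closer to the Arid1a f/f arrays than the other two, and the log2 ratio was 0.91 (SE 0.20, limma adjusted p = 0.0383). Rrp12, which encodes an export factor of the particle, had 7.36, 9.04 and 7.24 in Arid1a d/d uteri and 5.45, 3.74 and 4.33 in Arid1a f/f uteri, with a log2 ratio of 0.82 (limma, adjusted p = 0.0240). These values are near the array median, and the fold is therefore uncertain in size. Wdr43 and Wdr75 encode proteins of the complex that binds the growing precursor during its transcription. Wdr43 had 40.3, 46.0 and 46.4 in Arid1a d/d uteri and 26.9, 24.3 and 31.7 in Arid1a f/f uteri, with a log2 ratio of 0.68 (limma, adjusted p = 0.0205). Wdr75 had 49.2, 62.0 and 56.5 in Arid1a d/d uteri and 37.2, 31.1 and 35.95 in Arid1a f/f uteri, with a log2 ratio of 0.68 (limma, adjusted p = 0.0194). The genotypes did not overlap on any of these 4 genes, and each stayed past the threshold in 1 or 2 of 6 fits without 1 array.

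The other 8 small subunit genes ranged from near 0.53 to below 0. Utp20 had 39.5, 52.8 and 48.2 in Arid1a d/d uteri and 32.2, 29.7 and 34.8 in Arid1a f/f uteri, with a log2 ratio of 0.53 (limma, adjusted p = 0.0550). Utp18 had a log2 ratio of 0.45 (limma, adjusted p = 0.0750), and neither of these processing factor genes overlapped between genotypes. Heatr1, which encodes a large scaffold protein, had 37.8, 53.9 and 52.5 in Arid1a d/d uteri and 34.5, 38.03 and 36.4 in Arid1a f/f uteri. Arid1a d/d replicate 1 lay among the Arid1a f/f arrays, and the log2 ratio of 0.39 (limma, adjusted p = 0.191) was 0.55 (limma, adjusted p = 0.0364) without that replicate. Rrp9, a protein of the snoRNP that guides the early cuts, had 0.13, Nob1, the endonuclease of the final cut, 0.10, and Nol6 0.017 on the log2 scale, each with overlapping arrays. Only Nop14 and Noc4l had a log2 ratio below 0, and neither passed the test. Nop14 had 15.6, 14.7 and 17.9 in Arid1a d/d uteri and 14.1, 17.7 and 17.02 in Arid1a f/f uteri, with -0.017 (95% interval -0.30 to 0.27). Noc4l had 22.4, 31.5 and 30.3 in Arid1a d/d uteri and 32.4, 26.3 and 33.4 in Arid1a f/f uteri, with -0.14 (95% interval -0.49 to 0.22). Proteins made from these 2 genes work as partners in the small subunit pathway of yeast.

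Of 10 measured genes of large subunit processing, 3 rose and 7 did not pass the test, with a median log2 ratio of 0.42. Rrs1, a factor for early assembly of the large subunit, had 179, 198 and 163 in Arid1a d/d uteri and 98.7, 108 and 117 in Arid1a f/f uteri. The gap between genotypes was wide, with a log2 ratio of 0.74 (SE 0.11, limma adjusted p = 0.0123), and the call was lost only without Arid1a f/f replicate 2. Nop2, which encodes an rRNA methyltransferase linked to proliferation, had 29.3, 37.1 and 38.9 in Arid1a d/d uteri and 21.4, 21.3 and 22.9 in Arid1a f/f uteri, with a log2 ratio of 0.67 (limma, adjusted p = 0.0221). Gnl3, which encodes the nucleolar GTPase nucleostemin, had 119, 117 and 119 in Arid1a d/d uteri and 81.7, 82.8 and 86.3 in Arid1a f/f uteri, with a log2 ratio of 0.51 (limma, adjusted p = 0.0190). Gnl3 had the smallest spread of these genes, yet like Nop2 it stayed past the threshold in 1 of 6 fits without 1 array. Ebna1bp2 had 0.45 (limma, adjusted p = 0.0518), Gtpbp4, a GTPase gene, 0.29, the methyltransferase gene Ftsj3 0.26 and Nop16 0.24 on the log2 scale. Bop1, Pes1 and Wdr12 encode the subunits of 1 complex, named PeBoW, that is needed for large subunit maturation. Wdr12 had 25.9, 25.7 and 27.0 in Arid1a d/d uteri and 19.5, 18.2 and 22.4 in Arid1a f/f uteri, with a log2 ratio of 0.39 (limma, adjusted p = 0.0792). Bop1 had 17.8, 32.2 and 24.0 in Arid1a d/d uteri and 16.8, 18.7 and 15.6 in Arid1a f/f uteri, with 0.50 (limma, adjusted p = 0.217). Pes1 had 63.2, 63.0 and 60.1 in Arid1a d/d uteri and 60.7, 55.1 and 47.6 in Arid1a f/f uteri, with 0.20 (limma, adjusted p = 0.417). On the brightest probe sets no gene of this complex passed, and Bop1 and Pes1 overlapped between genotypes. A probe set of Wdr12 near the array median passed, with a log2 ratio of 0.53 (limma, adjusted p = 0.0332).

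**Figure D2:**
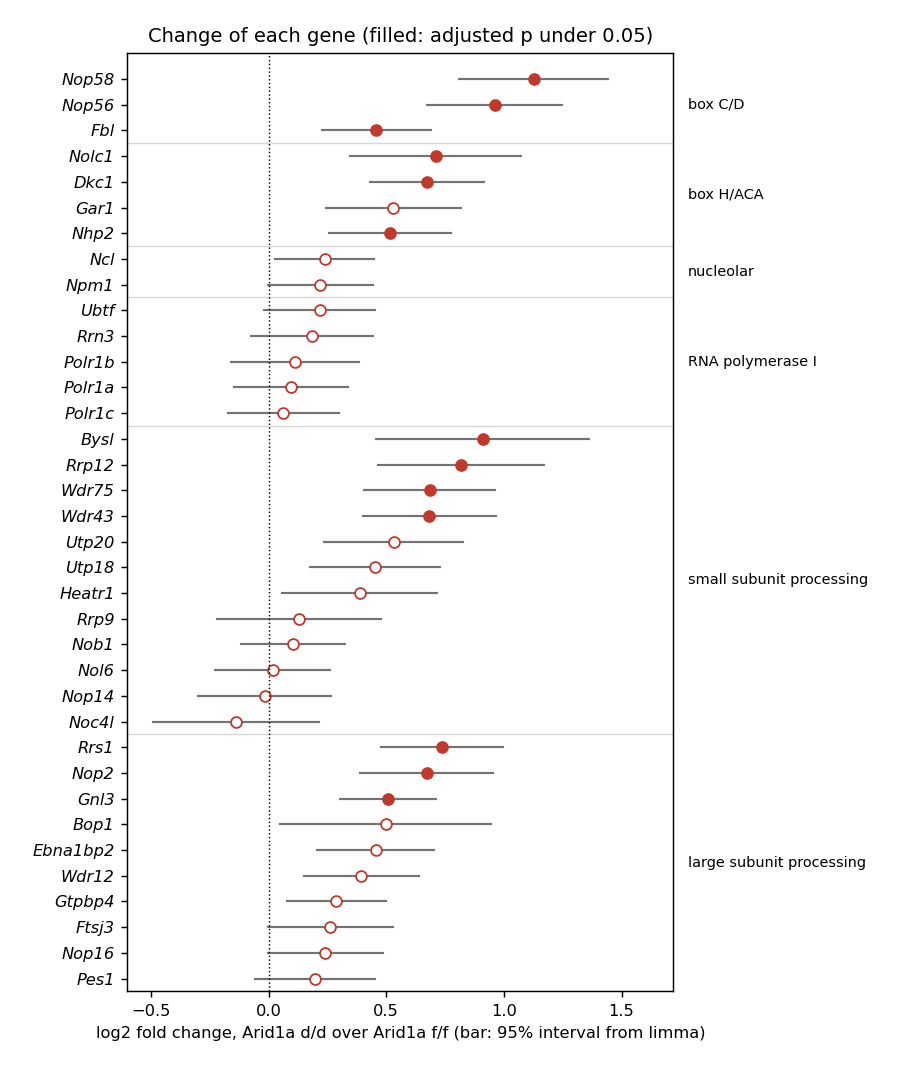
Log2 fold change of each of the 36 genes in Arid1a d/d over Arid1a f/f uteri (horizontal axis), grouped by role, with 95% intervals from limma and filled points at an adjusted p under 0.05. The 13 filled points lie in the box C/D, box H/ACA and the subunit processing groups, and all 5 intervals of the RNA polymerase I group include 0.

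Several of these genes were measured more than once on each array, which allows a check of a gene's change on probe sets that the choice of the brightest one did not use. Of the 36 genes, 24 had several probe sets. Of their 38 further probe sets, 10 were higher and 0 lower by the adjusted test. Of the 20 with a mean intensity of at least 10, 9 were higher and 19 lay above 0. No share over all probe sets, or over those of like brightness, is given beside these counts. The further probe sets read the same RNA on the same arrays. They therefore check the probe set used and not the difference between genotypes. All 3 probe sets of Dkc1 passed, with log2 ratios of 0.67 to 1.22. Both probe sets of Nop56 (0.96 and 1.22), Fbl (0.46 and 0.57), Nhp2 (0.52 and 0.74), Rrs1 (0.74 and 0.59) and Wdr43 (0.68 and 0.45) passed. In contrast, the further probe set of Bysl had 0.30 (limma, adjusted p = 0.349) at intensities of 16.1, 18.4 and 12.2 in Arid1a d/d uteri and 12.03, 13.4 and 12.03 in Arid1a f/f uteri. The further probe set of Wdr75 was near the array median at 0.18 (limma, adjusted p = 0.567). A further probe set of Nolc1 had 31.6, 38.3 and 39.4 in Arid1a d/d uteri and 17.8, 27.9 and 26 in Arid1a f/f uteri. Its log2 ratio of 0.63 (limma, adjusted p = 0.0857) did not pass. Another of Nolc1, near the array median, had 0.038 (limma, adjusted p = 0.898). Gtpbp4 and Ncl differed between probe sets in the other direction. A dimmer probe set of Gtpbp4 had 30.8, 34.5 and 27.4 in Arid1a d/d uteri and 12.2, 15.8 and 14.8 in Arid1a f/f uteri, with a log2 ratio of 1.12 (limma, adjusted p = 0.00468) where the brightest had 0.29 (limma, adjusted p = 0.129). A dimmer probe set of Ncl had 49.5, 56.2 and 45.0 in Arid1a d/d uteri and 30.0, 30.9 and 29.7 in Arid1a f/f uteri, with 0.73 (limma, adjusted p = 0.0109). Taken as the mean of all probe sets of a gene, 17 of the 36 genes were higher, against 3.33% of all genes, and these included Gtpbp4, Ncl and Wdr12 but not Wdr75. The 4 bright probe sets of Noc4l lay between -0.14 and 0.090, and the pair for Polr1c at 0.063 and -0.024.

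**Figure D3:**
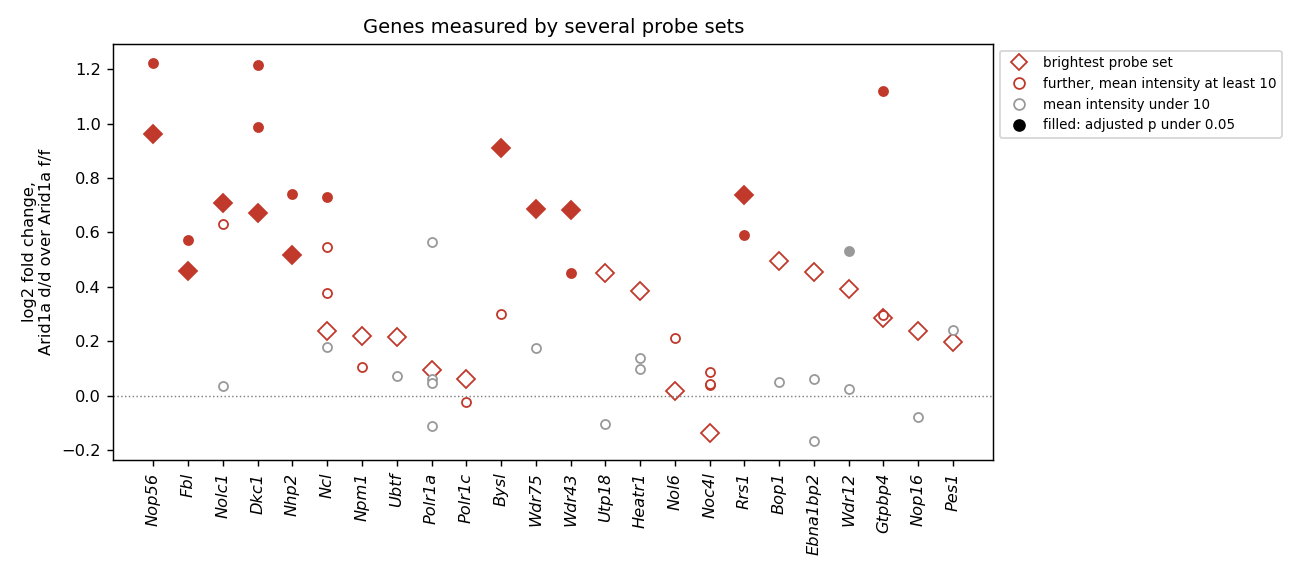
Log2 fold change in Arid1a d/d over Arid1a f/f uteri (vertical axis) of every probe set of the 24 genes that have several. Diamonds are brightest probe sets, circles further ones, grey points those with a mean intensity under 10, and filled points passed at an adjusted p under 0.05, as all 3 probe sets of Dkc1 did.

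The start regions of 5 genes are shown because genes of this group are classical targets of MYC family transcription factors, which bind the E-box CACGTG, and because 1 gene of that family stood far apart between genotypes. Mycn had 24.7, 39.3 and 17.2 in Arid1a d/d uteri and 3.39, 3.17 and 3.95 in Arid1a f/f uteri, and the Arid1a f/f values were close to the array median. Its log2 ratio was 2.87 (limma, adjusted p = 0.00183), a size that is uncertain because of the dim values. Mycn was read from the brightest of its 3 probe sets, and the others are not shown. Myc had 61.8, 43.5 and 70.5 in Arid1a d/d uteri and 58.5, 54.2 and 64.4 in Arid1a f/f uteri, and did not pass the test. Of the 4 genes Myc, Mycn, Mycl and the partner gene Max, 1 was higher and 0 lower by the adjusted test. Their median log2 ratio was 0.0094 and the lowest was -0.18. Whether Mycn or the motif has a part in the change of the biogenesis genes was not tested. Each sequence is written from RefSeq on build GRCm38.p6, reading 5′ to 3′ on the strand of the gene, and covers 250 bases before and 50 bases after the start of transcription, with positions counted from 1 at the left end. Capitals mark CACGTG, which reads the same on both strands. Nop58 and Nop56 are shown as the genes with the largest changes, Nop2 and Wdr43 as the 2 called genes that hold the motif, and Rrn3 as a gene that holds it and did not pass the test.
Nop58 (chr1:59684756-59685055, plus strand): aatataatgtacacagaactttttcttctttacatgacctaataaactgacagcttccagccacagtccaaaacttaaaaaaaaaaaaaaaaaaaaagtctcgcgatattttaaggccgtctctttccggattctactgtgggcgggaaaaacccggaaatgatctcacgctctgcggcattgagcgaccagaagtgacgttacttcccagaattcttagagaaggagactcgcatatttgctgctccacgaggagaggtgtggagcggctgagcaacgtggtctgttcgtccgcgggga
Nop56 (chr2:130274162-130274461, plus strand): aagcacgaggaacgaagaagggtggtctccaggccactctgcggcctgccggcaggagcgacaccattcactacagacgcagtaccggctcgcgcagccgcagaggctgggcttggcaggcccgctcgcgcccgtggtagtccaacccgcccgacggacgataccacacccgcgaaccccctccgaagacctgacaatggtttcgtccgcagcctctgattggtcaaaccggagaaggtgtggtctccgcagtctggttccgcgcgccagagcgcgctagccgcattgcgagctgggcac
Nop2 (chr6:125131633-125131932, plus strand): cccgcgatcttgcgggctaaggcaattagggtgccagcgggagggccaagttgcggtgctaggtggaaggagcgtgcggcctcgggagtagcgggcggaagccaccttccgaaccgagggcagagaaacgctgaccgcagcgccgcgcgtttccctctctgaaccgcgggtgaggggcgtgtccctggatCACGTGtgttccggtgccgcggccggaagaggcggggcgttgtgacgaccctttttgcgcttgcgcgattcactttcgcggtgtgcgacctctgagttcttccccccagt
Wdr43 (chr17:71615965-71616264, plus strand): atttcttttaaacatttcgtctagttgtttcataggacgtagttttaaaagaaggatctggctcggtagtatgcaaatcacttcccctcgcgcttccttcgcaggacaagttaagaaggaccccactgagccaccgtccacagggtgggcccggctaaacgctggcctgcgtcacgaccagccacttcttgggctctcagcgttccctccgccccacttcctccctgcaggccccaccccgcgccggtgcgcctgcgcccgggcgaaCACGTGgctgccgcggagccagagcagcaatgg
Rrn3 (chr16:13780449-13780748, plus strand): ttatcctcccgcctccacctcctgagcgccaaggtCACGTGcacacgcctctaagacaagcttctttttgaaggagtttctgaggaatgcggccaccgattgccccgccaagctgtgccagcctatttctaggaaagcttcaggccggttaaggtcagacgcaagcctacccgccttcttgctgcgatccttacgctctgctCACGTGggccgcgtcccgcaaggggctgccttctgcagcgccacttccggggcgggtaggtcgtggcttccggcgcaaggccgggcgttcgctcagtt

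Nop58 and Nop56 hold no CACGTG in this window, Nop2 holds it from base 191 and Wdr43 from base 268. Rrn3 holds it from base 36 and again from base 203. Sequence was found for 30 of the 36 genes, of which 6 hold the motif in at least 1 start region (20% of them), against 10.2% of the 14452 measured genes with sequence. These were Nop2, Wdr43, Pes1, Rrn3, Utp18 and Utp20, so 2 of the 10 called genes with sequence hold it. A core motif of ETS family factors, CCGGAAG, searched on both strands, stood in 9 of the 30 genes (30% of them) and in 15% of all measured genes with sequence, and among called genes in Nhp2, Nolc1 and Nop2. A match is a description of the letters in this window only.

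Further genes of the pathway were read from lists that do not hold the 36 genes. Of 137 further measured genes of ribosome biogenesis, 16 were higher and 1 lower by the adjusted test (11.7% higher, against 3.37% of all genes), with a median log2 ratio of 0.25 and 113 of the 137 above 0. The difference from the 36 genes was not tested. In place of 16, leaving out Arid1a d/d replicate 2 gave 2 higher, against 1.68% of all genes. Leaving out Arid1a d/d replicate 3 gave 4, against 1.65% of all genes. Leaving out Arid1a f/f replicate 1, 2 or 3 gave 5, 1 and 2 higher in that order. The shares of all genes were then 1.76%, 0.764% and 0.951%. Counts of 1 or 2 among the 137 genes in these fits are near the background. At an unadjusted p under 0.05, 64 were higher and 3 lower, against 11.4% and 13.5% of all genes. In the part for the large subunit, 7 of 51 genes were higher and 1 lower (13.7% higher, against 3.37% of all genes). Ddx21, which encodes a nucleolar RNA helicase, had 50.5, 54.0 and 56.4 in Arid1a d/d uteri and 25.5, 27.4 and 29.5 in Arid1a f/f uteri, with a log2 ratio of 0.97 (limma, adjusted p = 0.00324). Nop53 was the gene that fell. It had 243, 200.3 and 235 in Arid1a d/d uteri and 332, 374 and 357 in Arid1a f/f uteri, with a log2 ratio of -0.65 (limma, adjusted p = 0.0164). No further pathway gene was lower without Arid1a f/f replicate 2, without Arid1a f/f replicate 3, or without probe sets that may detect several transcripts. Nop53 is known both as a large subunit factor and as a regulator of the p53 pathway. Lyar, a nucleolar growth regulator gene, had 0.59 (limma, adjusted p = 0.0255). In the part for the small subunit, 4 of 46 genes were higher and 0 lower (8.7% higher, against 3.37% of all genes). Among them were Mphosph10 at 0.55, Esf1 at 0.54 and Utp23 at 0.49 on the log2 scale.

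By the adjusted test 3.37% of all genes were higher and 4.06% lower, beside which the next adjusted counts stand. Of 10 further snoRNP and assembly genes, 2 were higher and 0 lower, namely Ruvbl1 (log2 fold change 0.55) and Ruvbl2 (0.45). These 2 genes encode the paired ATPases that load snoRNP proteins. Nop10, the remaining core protein gene of box H/ACA particles, had 0.31 (limma, adjusted p = 0.119). Of 15 genes of the RNA exosome and other exonucleases, 2 were higher and 0 lower, the nuclease gene Dis3 at 0.59 and the cofactor gene C1d at 0.49 on the log2 scale. Of 15 further RNA polymerase I genes, 1 was higher and 0 lower by the adjusted test, near the background, with a median log2 ratio of 0.24. At an unadjusted p under 0.05, 7 were higher and 1 lower, against 11.4% and 13.5% of all genes. The gene called by the adjusted test was Polr2h, at 0.52 (limma, adjusted p = 0.0268). Its product is shared by all nuclear RNA polymerases and so is not particular to RNA polymerase I. Tcof1, the treacle gene that acts with Ubtf on rRNA genes, had 0.41 (limma, adjusted p = 0.117), and Baz2a, which encodes a subunit of a complex that silences rRNA genes, had -0.26 (limma, adjusted p = 0.185).

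The proteins of the finished ribosome are encoded by a separate set of genes, and none of those measured passed the test. Of 79 listed cytosolic ribosomal protein genes, 44 had a probe set that names the gene alone. By the adjusted limma test 0 were higher and 0 lower, against 3.37% and 4.06% of all genes, so these counts are near the background. At an unadjusted p they were 2 and 0, against 11.4% and 13.5%. Every Arid1a d/d array was above every Arid1a f/f array on 2 genes and below on 6, against 13.4% and 16% of all genes. The 44 genes had a median log2 ratio of -0.011 and a range of -0.13 to 0.36. Of these genes 34 had a mean intensity above 1000, where none of the 36 biogenesis genes lay, and whether such bright probe sets respond less was not tested. Among genes that host snoRNAs in their introns, 1 of 8 was higher and 1 lower, against 3.37% and 4.06% of all genes. Gas5, a non-coding RNA that is known to accumulate in growth-arrested cells, had 378, 320 and 381 in Arid1a d/d uteri and 467, 565 and 507 in Arid1a f/f uteri, with a log2 ratio of -0.51 (limma, adjusted p = 0.0450). Snhg3 had 0.55 (limma, adjusted p = 0.0479) at 5.08 ± 0.649 in Arid1a d/d and 3.47 ± 0.339 in Arid1a f/f uteri (SD, n = 3 each), close to the array median.

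**Figure D4:**
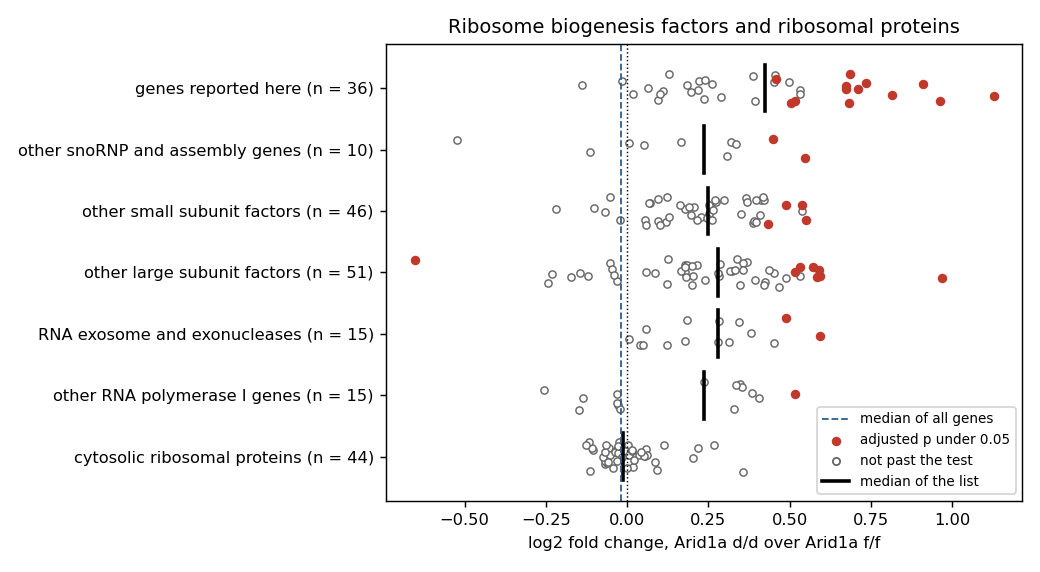
Log2 fold change in Arid1a d/d over Arid1a f/f uteri, on the horizontal axis, for every measured gene in 7 lists, from 3 arrays per genotype. Filled points passed at an adjusted p under 0.05, and the black bars are list medians, 0.42 for the 36 genes reported here and -0.011 for cytosolic ribosomal proteins.

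The arrays of a genotype were not alike for these genes. Taken as the median over the 36 genes of the log2 intensity minus its Arid1a f/f mean, the level was 0.32, 0.51 and 0.39 on Arid1a d/d replicates 1 to 3, and -0.0072, -0.027 and 0.053 on Arid1a f/f replicates 1 to 3. Arid1a d/d replicate 2 was the highest Arid1a d/d array on 20 of the 36 genes and replicate 1 the lowest on 16. On box C/D genes the level was 0.73, 1.08 and 0.91 in Arid1a d/d and 0.10, -0.013 and -0.11 in Arid1a f/f uteri, and on small subunit genes 0.18, 0.59 and 0.42 in Arid1a d/d and 0.017, -0.10 and 0.063 in Arid1a f/f uteri. So Arid1a d/d replicate 1 was the lowest of its genotype on both, as on RNA polymerase I genes (0.082) and large subunit genes (0.35). On box H/ACA genes the Arid1a d/d levels were 0.59, 0.72 and 0.46, with replicate 3 the lowest. On the nucleolar phosphoprotein genes they were 0.30, 0.20 and 0.19, with replicate 1 the highest.

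Proliferation markers and markers of several cell types also differed between genotypes in the same RNA. In whole tissue, fewer cells of a type and less RNA per cell cannot be told apart. By the adjusted test 3.37% of all genes were higher and 4.06% lower, beside which the adjusted counts below stand. Of 12 proliferation markers, 10 were higher and 0 lower, with levels of 0.78, 1.17 and 1.07 in Arid1a d/d and 0.46, -0.29 and -0.14 in Arid1a f/f uteri on the scale just described. Their summed intensity was 1259 to 1509 in Arid1a d/d and 632 to 992 in Arid1a f/f uteri. Arid1a d/d replicate 2 had the highest proliferation level of its genotype and the highest level of the 36 genes. Arid1a f/f replicate 1 had the highest proliferation level of its genotype and also the highest level of box C/D and of box H/ACA genes (0.10 and 0.090), whereas over all 36 genes Arid1a f/f replicate 3 was highest. Of 13 epithelial markers, 1 was higher and 0 lower by the adjusted test, with a median log2 ratio of 0.59. At an unadjusted p under 0.05, 8 were higher and 0 lower, against 11.4% and 13.5% of all genes. At least 1.5-fold higher were 7, against 3.89% of all genes. Epithelial levels were 0.18, 1.05 and 0.61 in Arid1a d/d and -0.015, 0.062 and -0.021 in Arid1a f/f uteri. The summed intensity was 1271 to 2516 in Arid1a d/d and 1207 to 1288 in Arid1a f/f uteri. Arid1a d/d replicate 2 was thus the highest Arid1a d/d array for epithelial markers and for the biogenesis genes alike, and without it the median of the 36 genes was 0.34. Of 12 endothelial markers, 0 were higher and 11 lower, with a median of -1.002 and a summed intensity of 281 to 338 in Arid1a d/d and 635 to 658 in Arid1a f/f uteri. Of 12 stromal fibroblast markers 0 were higher and 2 lower (summed intensity 9070 to 10744 in Arid1a d/d and 11346 to 12498 in Arid1a f/f uteri). Of 12 smooth muscle markers the counts were 0 and 1, near the background (7348 to 8977 and 8212 to 9409). Of 9 leukocyte markers they were 0 and 2 (370 to 474 and 491 to 769). At an unadjusted p these lists had 0 higher and 6 lower, 0 and 4, and 1 and 4, in that order. Of 6 blastocyst markers, 0 were higher and 0 lower, or 0 and 1 at an unadjusted p, and 5 were below the overall median intensity of 3.12 on every array. No other marker list had more than 1 gene below that value throughout. The part of these shifts in the results for the 36 genes was not tested.

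**Figure D5:**
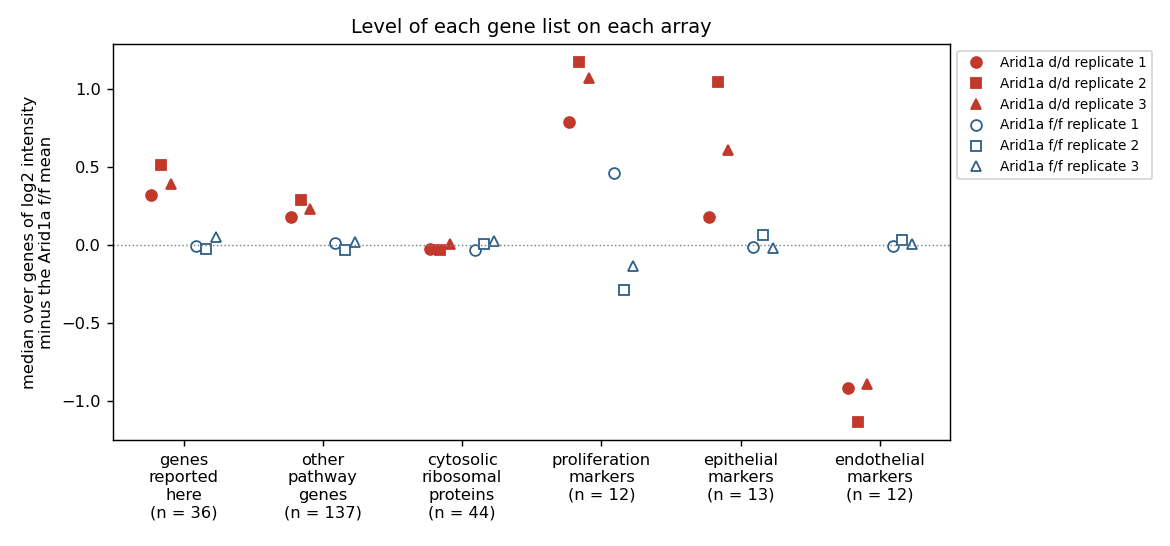
Median over the genes of each list of the log2 intensity minus the Arid1a f/f mean (vertical axis) on each of the 3 Arid1a d/d arrays (left, filled) and 3 Arid1a f/f arrays (right, open). The 36 genes reported here stand at 0.32 to 0.51 on the Arid1a d/d arrays, cytosolic ribosomal proteins near 0, and epithelial markers spread over 0.18 to 1.05.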

How the data were processed

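Whole uterus RNA at 3.5 dpc was measured on 6 Affymetrix mouse arrays, 3 per genotype, grouped by the sample titles. The authors processed the scans with RMA and scaled all arrays globally, which gave the deposited intensity values; the methods set a trimmed mean of 100 per array, and how the table was rescaled, the RMA version and the genome build are not given in the sources used here. Values run from 1.29 to 4479 on a linear scale, so log2 was taken, and dim probe sets were kept. Precision is limited by the number of arrays. Of 45037 probe sets, 34945 name 1 gene in the platform annotation, 932 name several and 9160 are unnamed here. Each gene was read from its brightest probe set, by mean log2; Polr1f, Polr1g and Polr1h appear under their older symbols. Control probe sets were not analysed here.

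The test was two-sided, by lmFit and eBayes of limma 3.58.1 under R 4.3.3, and the fit was tested on simulated data. The genes and lists were chosen with earlier results of these data known, and no set test was run. Every gene of the group is named. Values on every array were planned for called genes among the 12 largest changes, the lowest p in each role and genes below 0; the others shown so were chosen after their values were seen. Other lists give up to 3 called genes by size of change; Nop10, Tcof1, Baz2a, Myc, Hoxa10, Hoxa11 and Hand2 were chosen after their values were seen. Alternatives were the replicate block, quantile normalization, median centring, dropping dim or shared probe sets, eBayes options, the methods' t-test, array weights, probe set means and leaving out each array; the unadjusted limma count was added after seeing the data.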

Additional observations from a re-analysis of the deposited data

How the results depend on the processing

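No gene of the 36 was lower under any alternative run, and none of the 13 called genes changed direction. For the arrays the methods name a fold filter and no t-test, and Student's t-test is their general choice for 2 groups. With that t-test, 0 of the 36 genes and 0 of the 137 further pathway genes passed after adjustment. Upward, 0 of all 18193 genes passed, and Arid1a had the same -0.76 without passing. Unadjusted, the t-test gave 21 and 56 higher, against 9.51% of all genes, and limma 22 and 64, against 11.4%. Leaving out 1 array gave 2 to 13 of the 36 genes and 1 to 19 of the further genes higher, against 0.764% to 3.06% of all genes. The median of the 36 genes was then 0.34 to 0.46, and Arid1a had -0.82 to -0.66. As the mean of probe sets the median was 0.30. Without probe sets that may detect several transcripts, 32 of the 36 genes were measured and 11 were higher, against 2.63% of all genes. Gnl3 was then not measured, and Wdr75 had 0.18 and lost its call. Without such probe sets Rpl41 passed among ribosomal proteins. With the replicate block 12 were higher, against 3.17% of all genes, and Fbl lost its call (limma, adjusted p = 0.0757). Arrays with the same number were not shown to be pairs, since their deviations correlated at -0.029, 0.062 and 0.11 over genes and not every array correlated best with its own number. Quantile normalization left 10 higher, against 3.09% of all genes. Dim values, as for Rrp12, limit the size of a fold.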
